A study of Homo sapiens with 12 samples.

Results

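The Hedgehog pathway was followed through 7 genes: the receptor genes PTCH1 and SMO, the inhibitor genes SUFU and HHIP, and the transcription factor genes GLI1, GLI2 and GLI3. They were picked by symbol and role from 65975 gene identifiers, and each was found as 1 entry. By GENCODE 29 (GRCh38) they are protein-coding genes at separate places: GLI2 on chromosome 2 (120735623 to 120992653, plus strand), HHIP on 4 (144646021 to 144745271, plus), GLI3 on 7 (41960950 to 42237870, minus), SMO on 7 (129188872 to 129213545, plus), PTCH1 on 9 (95442980 to 95517057, minus), SUFU on 10 (102503987 to 102633535, plus) and GLI1 on 12 (57460135 to 57472262, plus). In this pathway a secreted ligand (SHH, IHH or DHH) binds PTCH1, which otherwise holds back SMO. Once released, SMO acts at the primary cilium and frees the GLI factors from SUFU. GLI1 is an activator, GLI3 is mostly cut to a repressor and GLI2 mostly serves as an activator, while GLI1, PTCH1 and HHIP are also targets of the GLI factors, so their RNA is commonly read as the output of the pathway. Hedgehog signalling patterns the somites from which skeletal muscle forms, and mice with a faulty copy of the Ptch1 gene develop rhabdomyosarcoma.

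RNA of RD cells and Rh30 cells was sequenced as polyA RNA. RD is a patient-derived line of fusion-negative rhabdomyosarcoma (FN-RMS), a tumor of the skeletal muscle lineage without a PAX/FOXO1 fusion, and Rh30 is a line of the fusion-positive form (FP-RMS). Cells of both lines were transduced with lentivirus carrying either a control shRNA (Scramble) or an shRNA against KDM3A (KDM3A-sh2) and selected in puromycin, so the controls carry vector and drug too. There were 3 libraries in each of the 4 groups, 12 in all. KDM3A is a histone demethylase that removes methyl groups from lysine 9 of histone H3. Each subtype is represented by 1 line and the knockdown by 1 shRNA. RD was grown in DMEM and Rh30 in RPMI, so that line and medium cannot be told apart. The labels and methods do not state if the replicate libraries stem from separate cultures. The titles number the replicates of each group. In the column names, however, the 3 Rh30 Scramble libraries all end in the same number, while those of the other groups end in different ones. Whether these 3 share a culture or sample is not given. The p-values then measure only the spread between these libraries, which may be technical.

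Values are FPKM, the fragments of a gene scaled to its transcript length and to the mapped fragments of the library, which allow levels of different genes to be set side by side. Relative depth, estimated from the lowest nonzero values because FPKM do not hold read counts, ran from 0.862 to 1.00 in RD KDM3A-sh2, from 1.04 to 1.22 in RD Scramble, from 0.942 to 0.991 in Rh30 KDM3A-sh2 and from 0.998 to 1.02 in Rh30 Scramble. In both lines the knockdown libraries were thus the shallower ones, and the part of depth in the results was not tested. Of 8 markers of the skeletal muscle lineage, 6 averaged 1 FPKM or more in every group, and the summed level of the 8 ran from 2222 to 2452 FPKM in RD Scramble, from 2777 to 2899 FPKM in RD KDM3A-sh2, from 2549 to 2828 FPKM in Rh30 Scramble and from 2892 to 2922 FPKM in Rh30 KDM3A-sh2, while MYF5 stayed under 0.1 FPKM throughout. CHRNA1, a subunit of the muscle acetylcholine receptor and the highest of the list over the 12 libraries, was higher with KDM3A-sh2 in RD (log2 fold change 0.42) and lower in Rh30 (-0.64). Of the 6 tested, 3 were higher and 3 lower with KDM3A-sh2 in RD, and 2 were higher and 3 lower in Rh30. Over all genes tested, 21.6% were higher and 19.5% lower in RD, and 15.3% and 13.2% in Rh30. Summed over 5 genes each, endothelial markers ran from 18.4 to 19.4 FPKM in RD Scramble and from 8.76 to 11.4 FPKM in RD KDM3A-sh2, almost all of it TIE1, and from 1.86 to 4.34 FPKM in Rh30. The defining endothelial gene CDH5 stayed under 0.1 FPKM in RD. It was higher in Rh30, where single libraries spanned 0.208 to 0.484 FPKM. PECAM1, also on the endothelial list, had Rh30 means of 0.935 (Scramble) and 0.743 FPKM (KDM3A-sh2). Its RD means were lower, at 0.252 (Scramble) and 0.296 FPKM (KDM3A-sh2). Both genes thus differed between the lines in the reverse direction to TIE1, at low levels. Leukocyte markers ran from 14.9 to 16.8 FPKM in RD Scramble and from 22.1 to 24.6 FPKM in RD KDM3A-sh2, almost all of it CD68, and from 0.223 to 1.03 FPKM in Rh30. The defining leukocyte genes PTPRC and CD3E stayed under 0.1 FPKM in all 12 libraries. Epithelial markers ran from 0.329 to 0.702 FPKM in RD and reached 5.16 to 7.97 FPKM in Rh30, mostly EPCAM, with CDH1 under 0.1 FPKM in every library. With KDM3A-sh2, TIE1 was lower in both lines (-0.94 in RD, and -0.60 in Rh30 from a mean of 1.86 FPKM to one under the 1 FPKM filter) and CD68 was higher in RD (0.53). The part of these muscle, endothelial and leukocyte genes in the results was not tested.

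The promoters of 3 genes are shown because the results below turn on them: PTCH1 and HHIP as GLI targets that were lower with KDM3A-sh2 (PTCH1 in RD, HHIP in Rh30), and GLI2 as the gene that went opposite ways in the 2 lines. Each is a window of 300 bases from RefSeq (GRCh38.p14), 250 before and 50 from an annotated transcript start. Windows were matched for 5 of the 7 genes, 10 windows in all, and GLI1 and GLI3 had none. PTCH1 (chr9:95509217-95509516, minus strand) is 1 of 5 PTCH1 windows, HHIP (chr4:144645906-144646205, plus strand) the only one and GLI2 (chr2:120735618-120735917, plus strand) 1 of 2. Capitals mark the consensus word of GLI proteins, GACCACCCA, or TGGGTGGTC on the other strand.
PTCH1: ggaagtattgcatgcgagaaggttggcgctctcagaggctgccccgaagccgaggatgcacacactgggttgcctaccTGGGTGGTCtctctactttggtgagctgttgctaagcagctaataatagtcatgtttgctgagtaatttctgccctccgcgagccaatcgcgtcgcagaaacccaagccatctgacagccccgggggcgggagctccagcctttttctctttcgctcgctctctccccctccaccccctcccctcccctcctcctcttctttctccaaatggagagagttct
HHIP: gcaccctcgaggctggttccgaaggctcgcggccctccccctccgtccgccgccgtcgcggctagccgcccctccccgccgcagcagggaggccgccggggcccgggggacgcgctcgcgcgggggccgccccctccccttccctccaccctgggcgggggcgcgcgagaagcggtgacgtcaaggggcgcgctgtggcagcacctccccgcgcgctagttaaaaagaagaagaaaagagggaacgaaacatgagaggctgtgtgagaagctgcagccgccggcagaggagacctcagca
GLI2: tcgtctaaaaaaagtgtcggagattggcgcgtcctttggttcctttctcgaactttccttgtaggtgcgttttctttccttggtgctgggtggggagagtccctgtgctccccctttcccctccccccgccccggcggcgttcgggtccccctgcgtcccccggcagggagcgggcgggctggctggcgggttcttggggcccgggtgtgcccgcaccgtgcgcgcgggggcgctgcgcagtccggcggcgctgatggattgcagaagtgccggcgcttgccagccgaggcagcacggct
The word was found in this PTCH1 window alone among the 10, on the other strand, with its first base 172 bases before the start, that is at position -172. Of 35116 such windows in the RefSeq table, 83 (0.236%) hold it on either strand. A match is a description of these letters and not a binding site, and no binding was measured in these samples.

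KDM3A itself, which checks the labels, was lower in every KDM3A-sh2 library than in every Scramble library of its line. In RD it was at 35.8, 33.9 and 30.9 FPKM with Scramble and at 12.0, 11.2 and 13.4 FPKM with KDM3A-sh2, a log2 fold change of -1.39 (limma, adjusted p = 5.0e-05). In Rh30 it was at 27.8, 29.2 and 32.0 FPKM with Scramble and at 13.7, 13.2 and 15.4 FPKM with KDM3A-sh2, a log2 fold change of -1.02 (limma, adjusted p = 0.000348).

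The lines differed most in GLI1 and HHIP, which were high in Rh30 and low in RD. With Scramble, the order of mean levels in Rh30 was GLI1, HHIP, SMO, PTCH1, SUFU, GLI3 and GLI2. In RD it was SMO, GLI3, PTCH1, SUFU, GLI2, GLI1 and HHIP. Neighbours whose libraries overlapped were SMO and PTCH1 in Rh30, and SMO with GLI3 and GLI3 with PTCH1 in RD. The other neighbours in each order did not overlap. With KDM3A-sh2, GLI3 stood above SMO in RD without overlap, while the order in Rh30 was the same and the libraries of PTCH1, SUFU and GLI3 overlapped with their neighbours among these 3.

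**Figure D1:**
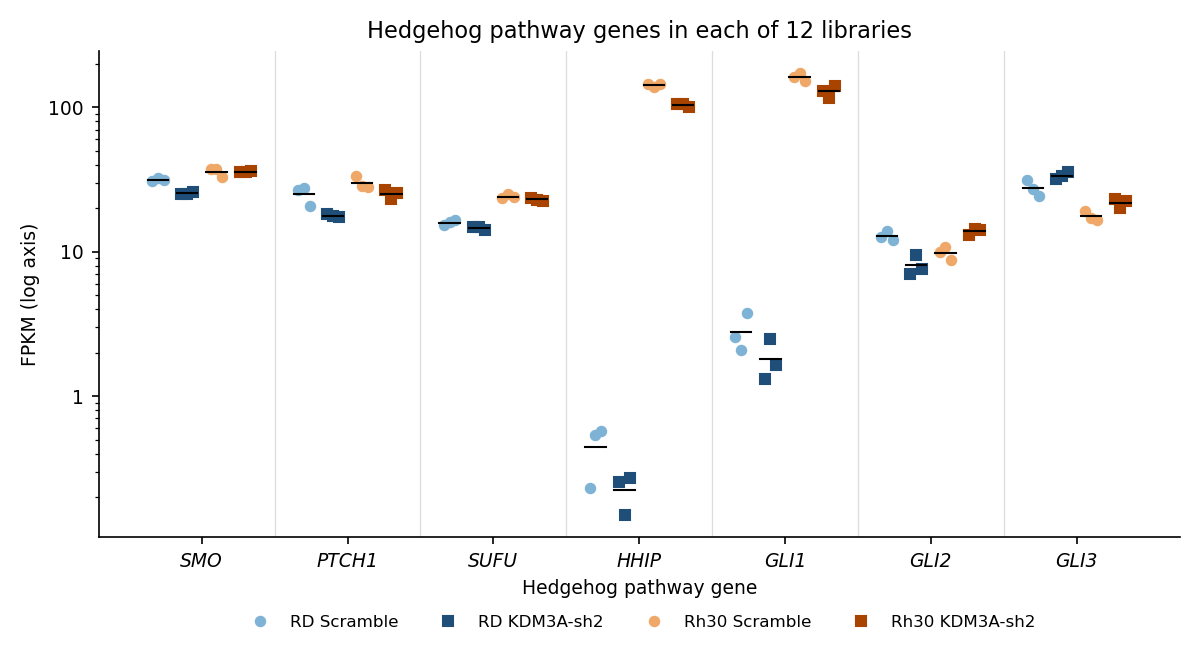
FPKM (log axis) of the 7 genes in each library, with 3 points per group and a line at the group mean; circles are Scramble, squares are KDM3A-sh2, blue is RD and orange is Rh30. GLI1 and HHIP lie at 100.9 FPKM or more in every Rh30 library and at 3.75 FPKM or less in every RD library, while the other 5 genes lie between 7.04 and 37.3 FPKM throughout.

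The genes between ligand and GLI factors, SMO, PTCH1 and SUFU, were higher in Rh30 than in RD by ratios of the means from 1.14 to 1.51, and SMO and SUFU passed the test. In Rh30 against RD with Scramble, 35.0% of 18352 genes tested were higher and 39.6% lower (limma on log2(FPKM + 1), Benjamini-Hochberg adjusted p under 0.05), so that a call between these lines was common. Of the 7 genes, 4 were higher and 2 lower in Rh30. HHIP could be tested there only through its Rh30 level, and nothing is read from the count.

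SMO, the seven-pass membrane protein that starts signalling inside the cell, was at 37.3, 37.1 and 33.0 FPKM in Rh30 Scramble and at 30.7, 32.3 and 31.1 FPKM in RD Scramble. The groups did not overlap, and the log2 difference was 0.18 (SE 0.06, limma, adjusted p = 0.0284). That call was lost without Rh30 Scramble 1 (adjusted p = 0.0921), without Rh30 Scramble 2 (0.0869), without RD Scramble 1 (0.0789) and without RD Scramble 3 (0.0714), all by limma. PTCH1, the ligand receptor, was at 33.2, 28.5 and 28.2 FPKM in Rh30 Scramble and at 26.8, 27.5 and 20.8 FPKM in RD Scramble. Each Rh30 library stood above each RD library, but the log2 difference of 0.26 (SE 0.12) did not pass (limma, adjusted p = 0.0874). SUFU, which binds the GLI factors in the cytoplasm, was at 23.4, 24.9 and 23.7 FPKM in Rh30 Scramble and at 15.2, 16.0 and 16.5 FPKM in RD Scramble. It was higher in Rh30 by a log2 difference of 0.56 (SE 0.06, limma, adjusted p = 8.16e-05).

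HHIP, a membrane protein that captures Hedgehog ligands and is itself a GLI target, showed the largest difference of the 7. It was at 144.2, 138.3 and 145.7 FPKM in Rh30 Scramble and at 0.230, 0.539 and 0.572 FPKM in RD Scramble. The ratio of the means was 319 and the log2 difference 6.64 on the log2(FPKM + 1) scale, which understates changes of low genes (limma, adjusted p = 1.57e-08). HHIP passed the filter only through Rh30 and had to differ, so this p-value is a description. HHIP-AS1, an antisense gene annotated over part of HHIP, was likewise at 37.2 to 40.0 FPKM in Rh30 Scramble and at 0.105 to 0.215 FPKM in RD Scramble. The strand setting of the counting was not given in the sources used here, so the values of the 2 genes are uncertain where they overlap.

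GLI1, the activator that is also a target of the pathway, was at 162.2, 173.3 and 153.3 FPKM in Rh30 Scramble and at 2.55, 2.08 and 3.75 FPKM in RD Scramble. The means were 58.3 times apart, a log2 difference of 5.46 (limma, adjusted p = 1.55e-07). GLI2 and GLI3 went the other way. GLI2 was at 9.94, 10.9 and 8.75 FPKM in Rh30 Scramble and at 12.7, 13.9 and 12.1 FPKM in RD Scramble, a log2 difference of -0.36 (SE 0.09, limma, adjusted p = 0.0110). GLI3 was at 19.2, 17.1 and 16.5 FPKM in Rh30 Scramble and at 31.1, 27.1 and 24.3 FPKM in RD Scramble, a log2 difference of -0.61 (SE 0.10, limma, adjusted p = 0.00112). Neither gene overlapped between the lines.

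The family was thus made up differently in the 2 lines. GLI1 took 84.8% to 86.1% of the summed GLI1, GLI2 and GLI3 FPKM in Rh30 Scramble and 4.83% to 9.35% in RD Scramble. GLI3 took 60.6% to 67.2% in RD Scramble and 8.50% to 10.0% in Rh30 Scramble.

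**Figure D2:**
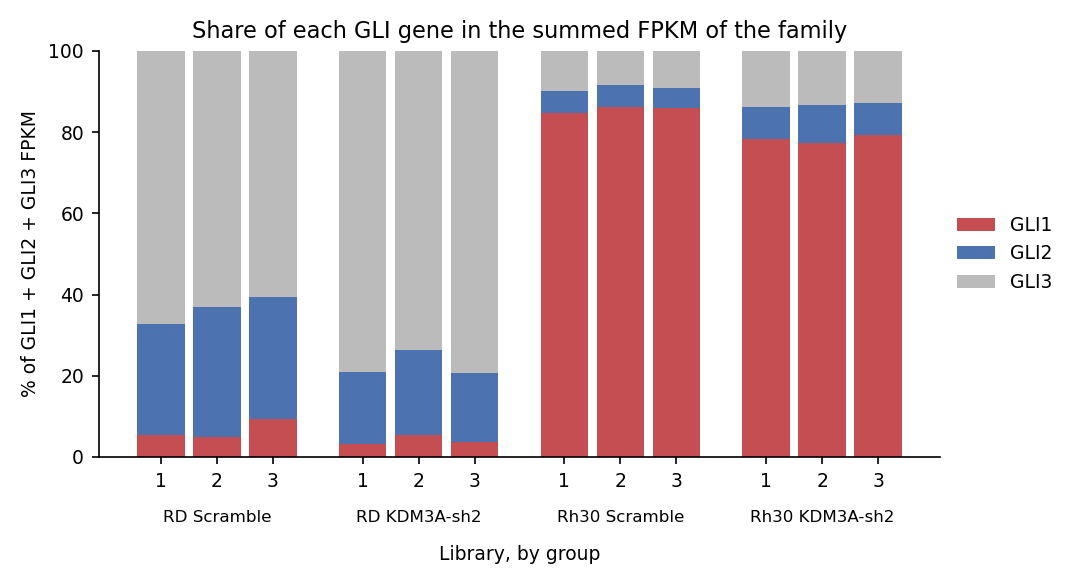
Share of GLI1, GLI2 and GLI3 in the summed FPKM of the 3 genes (percent, stacked) in each of the 12 libraries, by group. GLI1 takes at least 77.2% in every Rh30 library and at most 9.35% in every RD library, and the blue band of GLI2 is narrower in RD KDM3A-sh2 (17.0% to 20.9%) than in RD Scramble (27.3% to 32.2%).

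GLI1 lies on chromosome 12 among genes that were also high in Rh30. Of 18 genes listed beside it over 593 kilobases, 17 were tested, and 14 were higher and 2 lower in Rh30 than in RD with Scramble. Their median log2 difference was 3.06, against -0.04 over all genes tested, of which 35.0% were higher and 39.6% lower. CDK4, a cyclin-dependent kinase of the G1 phase, was at a mean of 14661 FPKM in Rh30 Scramble and 654.9 FPKM in RD Scramble (log2 difference 4.48). DDIT3, a transcription factor of the stress response, stood at 162.4 and 60.7 FPKM (log2 difference 1.41). Of the 17, only AVIL, named after its values were seen, had a larger difference (6.12) than GLI1. DNA copy number was not measured in these data, and the part of the region in the level of GLI1 was not tested. HHIP lies on another chromosome.

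**Figure D3:**
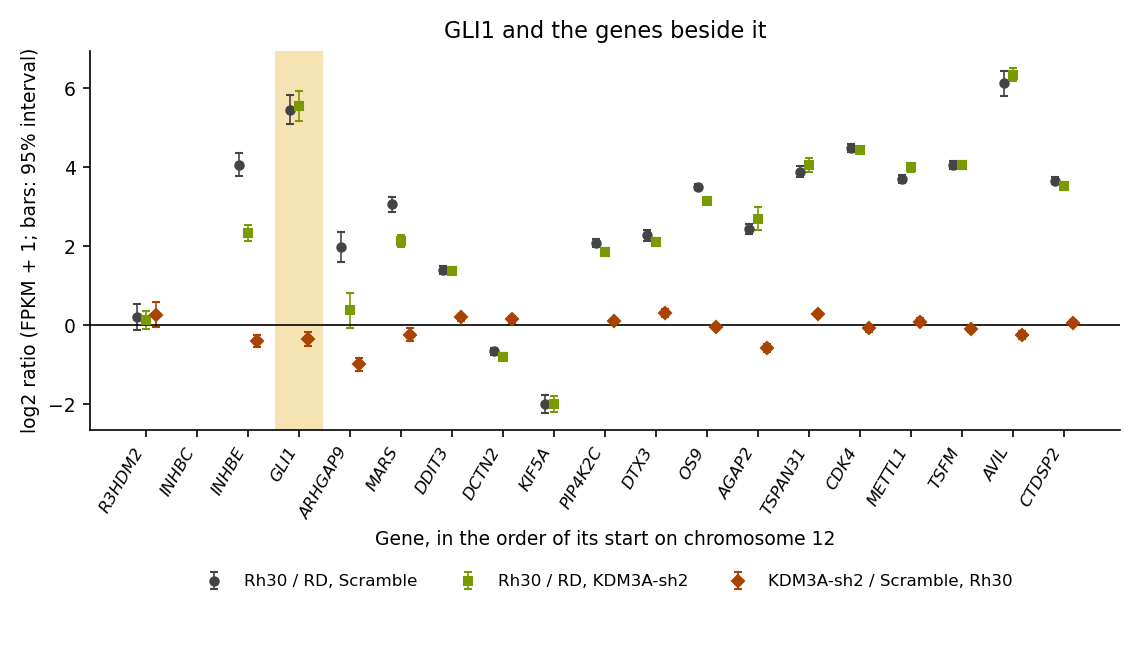
Log2 ratios (FPKM + 1, bars are 95% intervals) of GLI1 (shaded) and 18 genes beside it in the order of their starts, for Rh30 over RD with Scramble, for Rh30 over RD with KDM3A-sh2, and for KDM3A-sh2 over Scramble in Rh30, comparisons that share libraries. Most genes lie between 1.41 and 6.12 in the line comparison with Scramble, DCTN2 and KIF5A lie under 0, and INHBC was too low to be tested.

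The comparison of the lines in the KDM3A-sh2 libraries, which the Scramble comparison did not use, gave 37.7% of 18664 genes higher and 40.3% lower in Rh30. Of the 7 genes, 6 were higher and 1 lower. HHIP could again be tested only through its Rh30 level and had to differ, and nothing is read from this count. GLI1 (log2 difference 5.55), HHIP (6.42), SUFU (0.63), SMO (0.48) and PTCH1 (0.47) were higher in Rh30, with adjusted p by limma of 0.000407 for PTCH1 and smaller for the others. GLI3 was lower (-0.60, limma, adjusted p = 0.000216). GLI2 was higher in Rh30 here (0.73, SE 0.11, limma, adjusted p = 0.000756) although it was lower there with Scramble, and no library overlapped in either comparison.

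**Figure D4:**
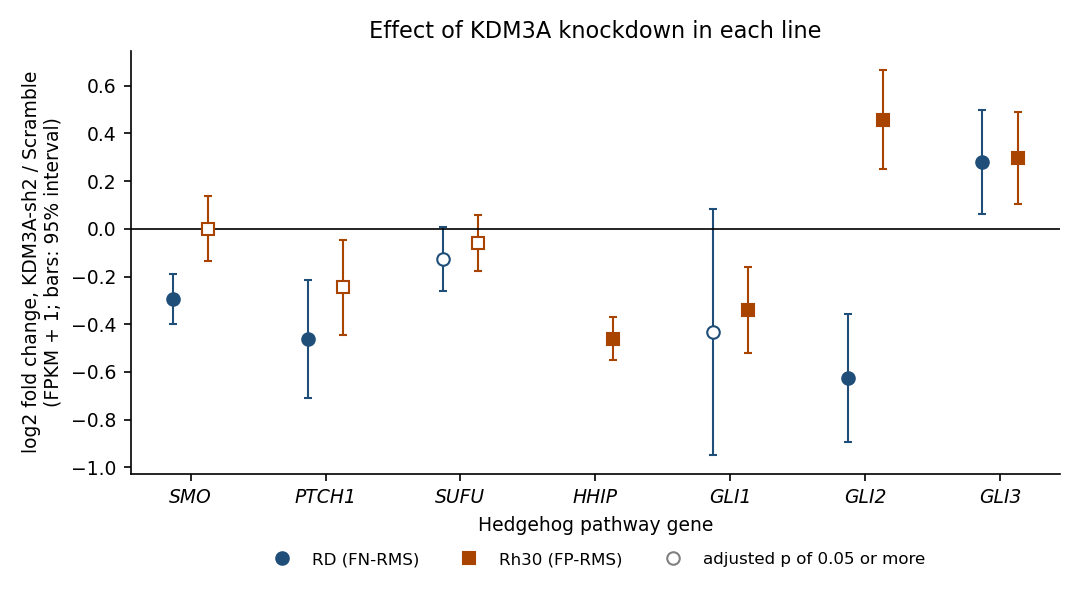
Log2 fold change of KDM3A-sh2 over Scramble (FPKM + 1) for the 7 genes in RD (circles) and Rh30 (squares), with 95% intervals; open symbols have an adjusted p of 0.05 or more, and HHIP was too low in RD to be tested. GLI2 lies at -0.62 in RD and at 0.46 in Rh30, and GLI3 lies above 0 in both.

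Upon KDM3A knockdown in RD, GLI2, PTCH1 and SMO were downregulated and GLI3 was upregulated. Of 17986 genes tested in RD, 21.6% were higher and 19.5% lower. Of the 7 genes 6 could be tested, with 1 higher and 3 lower, and their median log2 fold change was -0.36 against 0.01 over all genes tested. In these bulk samples, fewer cells of a type and less RNA per cell cannot be told apart.

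In RD, GLI2 was at 12.7, 13.9 and 12.1 FPKM with Scramble and at 7.04, 9.50 and 7.57 FPKM with KDM3A-sh2. Every knockdown library stood below every control library, and GLI2 fell by 0.62 on the log2 scale (SE 0.11, limma, adjusted p = 0.00469). SMO was at 30.7, 32.3 and 31.1 FPKM with Scramble and at 25.0, 25.3 and 25.9 FPKM with KDM3A-sh2. This was a tight difference without overlap, and SMO fell by 0.29 (SE 0.04, limma, adjusted p = 0.00220). PTCH1 was at 26.8, 27.5 and 20.8 FPKM with Scramble and at 18.1, 17.8 and 17.5 FPKM with KDM3A-sh2. The third Scramble library was the lowest of the controls but still above all knockdown libraries, and PTCH1 fell by 0.46 (SE 0.10, limma, adjusted p = 0.0118). GLI3, in contrast, was at 31.1, 27.1 and 24.3 FPKM with Scramble and at 31.7, 33.4 and 35.4 FPKM with KDM3A-sh2. The highest control library came close to the lowest knockdown library, and the log2 fold change was 0.28 (SE 0.09, limma, adjusted p = 0.0470). The GLI3 call was lost without RD Scramble 2 (adjusted p = 0.115) or 3 (0.109) and without RD KDM3A-sh2 1 (0.0644), 2 (0.103) or 3 (0.128), all by limma.

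GLI1 in RD overlapped between the groups and did not pass. It was at 2.55, 2.08 and 3.75 FPKM with Scramble and at 1.31, 2.47 and 1.65 FPKM with KDM3A-sh2, with a log2 fold change of -0.43 and a 95% interval from -0.95 to 0.08 (limma, adjusted p = 0.158). SUFU, at 15.2, 16.0 and 16.5 FPKM with Scramble and at 14.7, 14.7 and 14.0 FPKM with KDM3A-sh2, did not overlap but did not pass either (log2 fold change -0.13, 95% interval -0.26 to 0.01, limma, adjusted p = 0.121). HHIP was under 1 FPKM in every RD library and was not tested there. The share of GLI2 in the GLI family was 27.3% to 32.2% with Scramble and 17.0% to 20.9% with KDM3A-sh2, and the ratio of GLI2 to GLI3 FPKM was 0.407 to 0.511 with Scramble and 0.214 to 0.284 with KDM3A-sh2.

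In Rh30, KDM3A knockdown was accompanied by lower HHIP and GLI1 and by higher GLI2 and GLI3. Of 17796 genes tested in Rh30, 15.3% were higher and 13.2% lower, and of the 7 genes 2 were higher and 2 lower, with a median log2 fold change of -0.06 against 0.03 over all genes tested. HHIP was at 144.2, 138.3 and 145.7 FPKM with Scramble and at 104.9, 104.7 and 100.9 FPKM with KDM3A-sh2. The groups were far apart relative to their spread, and HHIP fell by 0.46 (SE 0.04, limma, adjusted p = 0.000399). HHIP-AS1 was at 38.2, 37.2 and 40.0 FPKM with Scramble and at 40.6, 43.4 and 41.9 FPKM with KDM3A-sh2, a log2 fold change of 0.12 that did not pass (limma, adjusted p = 0.0967). The antisense gene was higher in each knockdown library than in each control library, the reverse of HHIP.

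GLI1 in Rh30 was at 162.2, 173.3 and 153.3 FPKM with Scramble and at 130.3, 116.4 and 139.6 FPKM with KDM3A-sh2. The groups did not overlap, and GLI1 fell by 0.34 (SE 0.08, limma, adjusted p = 0.0182). The call was lost with ANOVA on unlogged FPKM (adjusted p = 0.0711). By limma it was lost with the replicate block (adjusted p = 0.0607), in the fit over 12 libraries (0.147), without the filter (0.0531), without Rh30 Scramble 1 (adjusted p = 0.0524), without Rh30 Scramble 2 (0.0540) and without Rh30 KDM3A-sh2 1 (0.0515). Of the 16 genes tested beside GLI1, 5 were higher and 5 lower, with a median of 0.01, beside 15.3% and 13.2% of all genes. Of the 16, 3 had a log2 fold change under that of GLI1. One of these is ARHGAP9, named because its annotated end overlaps that of GLI1 by a few bases, with a log2 fold change of -0.99.

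GLI2 in Rh30 was at 9.94, 10.9 and 8.75 FPKM with Scramble and at 13.1, 14.4 and 14.1 FPKM with KDM3A-sh2. All knockdown libraries stood above all control libraries, and the log2 fold change was 0.46 (SE 0.09, limma, adjusted p = 0.0102). GLI3 was at 19.2, 17.1 and 16.5 FPKM with Scramble and at 23.0, 19.9 and 22.6 FPKM with KDM3A-sh2, again without overlap, with a log2 fold change of 0.30 (SE 0.08, limma, adjusted p = 0.0338). The GLI3 call was lost without Rh30 Scramble 2 (adjusted p = 0.0899) or 3 (0.0890) and without Rh30 KDM3A-sh2 1 (0.106) or 3 (0.0955), all by limma. The share of GLI1 in the family was 77.2% to 79.2% with KDM3A-sh2, against the 84.8% to 86.1% with Scramble given above.

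PTCH1, SMO and SUFU did not pass in Rh30. PTCH1 was at 33.2, 28.5 and 28.2 FPKM with Scramble and at 26.8, 23.1 and 25.4 FPKM with KDM3A-sh2, without overlap, and its log2 fold change of -0.24 had a 95% interval from -0.44 to -0.04 before adjustment over all genes (limma, adjusted p = 0.0705). SMO was at 37.3, 37.1 and 33.0 FPKM with Scramble and at 35.6, 35.7 and 36.0 FPKM with KDM3A-sh2. The knockdown libraries lay inside the range of the controls, with a 95% interval of the log2 fold change from -0.14 to 0.14 (limma, adjusted p = 0.998). SUFU overlapped as well, at 23.4, 24.9 and 23.7 FPKM with Scramble and at 23.6, 22.8 and 22.6 FPKM with KDM3A-sh2 (95% interval -0.18 to 0.06, limma, adjusted p = 0.404).

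Whether the effect of KDM3A knockdown differed between the lines was tested with the interaction of shRNA and line over all 12 libraries, in which 14.4% of 18517 genes had a higher effect in Rh30 and 13.4% a lower one. On the TPM scale, with every library rescaled to the same sum, the split of these calls moved from 51.7% to 40.7% with a higher effect in Rh30. KDM3A itself passed in this test (0.37), as its decrease was smaller in Rh30 than in RD. The part of this unequal knockdown in the differences of other genes was not tested. Of the 7 genes, GLI2 and SMO passed. For GLI2 the effect in Rh30 minus that in RD was 1.08 (SE 0.15, limma, adjusted p = 0.000369), with opposite directions in the 2 lines. For SMO it was 0.29 (SE 0.07, limma, adjusted p = 0.00876), with the decrease in RD and the interval around 0 in Rh30 given above. Both calls were kept under all 18 alternatives tried, with GLI2 at 1.00 or more and SMO at 0.23 or more.

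For the other genes a difference between the lines was not shown on the log2 scale, and for GLI3, SUFU and PTCH1 the intervals limit its size. It was 0.02 for GLI3 (95% interval -0.27 to 0.30, limma, adjusted p = 0.944) and 0.07 for SUFU (-0.08 to 0.21, limma, adjusted p = 0.509). It was 0.22 for PTCH1 (-0.10 to 0.53, limma, adjusted p = 0.298), which passed without RD Scramble 3 (0.34, limma, adjusted p = 0.0452). GLI1 (0.09, -0.43 to 0.62) and HHIP (-0.23, -0.50 to 0.05) rest on low RD values. With a pseudocount of 0.1 the HHIP difference was 0.24, outside that interval, so its size is not limited by it. With ANOVA on unlogged FPKM both passed (adjusted p = 0.0242 for GLI1 and 2.33e-05 for HHIP). On that scale GLI1 averaged 162.9 FPKM in Rh30 controls against 128.8 FPKM after knockdown, and 2.79 against 1.81 FPKM in RD. HHIP averaged 142.7 against 103.5 FPKM in Rh30 and 0.447 against 0.225 FPKM in RD. At such RD levels an unlogged decrease there had to be small, so both calls rest on the decrease in Rh30. Within Rh30 alone, ANOVA on unlogged FPKM passed for HHIP (adjusted p = 0.00529) but not for GLI1 (adjusted p = 0.0711).

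The ligands were at or near 0, as far as this depth shows. SHH was listed at 0 in 11 of 12 libraries and at 0.0113 FPKM in the remaining one, an RD Scramble library. IHH reached at most 0.316 FPKM and DHH at most 0.168 FPKM. None of the 3 could be tested. The levels of GLI1 and HHIP in Rh30 thus stood beside ligand RNA at the floor of the measurement in the same cells, and ligand in the medium was not measured.

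The other genes of the pathway were counted in lists by role. Over all genes tested, 21.6% were higher and 19.5% lower in RD, and 15.3% and 13.2% in Rh30, so nothing is read from counts in the short lists. Of 5 genes for ligand acylation and release, 4 were tested in RD, where 1 was lower, and 3 in Rh30, where 1 was lower. The one in RD was SCUBE3, a secreted protein that helps release lipid-bearing ligand, at a mean of 1.69 FPKM in control cells and 0.679 FPKM in knockdown cells (log2 fold change -0.68). It passed the filter only through the control libraries, so its call is a description. The one in Rh30 was HHAT, the enzyme that attaches palmitate to the ligand, at 19.7 and 6.63 FPKM (log2 fold change -1.44, limma, adjusted p = 7.34e-05). HHAT did not pass in RD (0.07), and its effect differed between the lines (-1.52, limma, adjusted p = 2.18e-06). Of 4 ligand co-receptors tested, none passed in RD. In Rh30 GAS1, which presents ligand to PTCH1, was higher (166.1 and 226.4 FPKM, log2 fold change 0.44), while the co-receptor CDON (-0.18) and the ligand-binding glypican GPC3 (-0.19) were slightly lower. Between the lines with Scramble, SCUBE1 (3.12) and DISP1 (2.05), the transporter that releases ligand, were higher in Rh30, and BOC (-1.13) and SCUBE2 (-1.42) were lower. SCUBE1 (0.897 FPKM in RD) and SCUBE2 (0.455 FPKM in Rh30) passed the filter only through the line in which they are high and had to differ.

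Of 29 regulators of SMO and the GLI proteins, 10 were higher and 5 lower in RD, and 6 were higher and 3 lower in Rh30, where the shares over all genes tested were 21.6% and 19.5% in RD and 15.3% and 13.2% in Rh30. The median log2 fold change was 0.13 in RD and 0.00 in Rh30, against 0.01 and 0.03 over all genes. In RD, ADRBK1, a kinase that phosphorylates SMO (log2 fold change 0.59), and BTRC, the F-box protein that marks GLI proteins for processing (0.54), were higher. GPR161, a ciliary receptor that raises cAMP against the pathway, was lower (-0.51). In Rh30 the catalytic subunits of protein kinase A, PRKACA (-0.54) and PRKACB (-0.42), which phosphorylate GLI proteins, were lower, and IQCE, of the ciliary EVC complex, was higher (0.56). Between the lines with Scramble, 16 of the 29 were higher and 7 lower in Rh30, beside 35.0% and 39.6% of all genes, among them ARRB1 (1.63) and EVC2 (1.55) higher and IQCE (-1.42) and STK36 (-1.25) lower.

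Of 20 genes of intraflagellar transport and the cilium, 3 were higher and 6 lower in RD, and 2 were higher and 3 lower in Rh30, beside the same shares over all genes. TCTN1, of the transition zone, was higher in both lines (0.69 in RD, 0.66 in Rh30), and IFT20, a transport particle subunit, was lower in both (-0.69 and -0.49). DYNC2LI1, of the retrograde motor, was higher in RD (0.56), while IFT172, another transport particle subunit, was higher in Rh30 (0.45) and lower in RD (-0.29). Between the lines with Scramble, 5 were higher and 14 lower in Rh30, beside 35.0% and 39.6% of all genes. The median of the 20 was -0.65 against -0.04 over all genes. The lower ones included the retrograde motor chain DYNC2H1 (-1.69) and the kinesin-associated KIFAP3 (-1.65), and the higher ones included RPGRIP1L (0.57), of the transition zone.

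Of 18 genes described elsewhere as GLI targets, 12 were tested in RD, with 1 higher and 5 lower, and 16 in Rh30, with 1 higher and 6 lower, where 21.6% and 19.5% of all genes were called in RD and 15.3% and 13.2% in Rh30. The median log2 fold change was -0.17 in RD and -0.06 in Rh30, against 0.01 and 0.03 over all genes. IGF2, a fetal growth factor, was lower in both lines, with means of 5032 (Scramble) and 3070 FPKM (KDM3A-sh2) in RD (-0.71) and of 2230 and 1225 FPKM in Rh30 (-0.86). In RD the cell cycle factor FOXM1 (-0.95) and the BMP antagonist GREM1 (-0.63) were lower. In Rh30 cyclin D1 (CCND1) was lower, from 134.1 to 54.1 FPKM (-1.29), while the transcription factor SNAI1 was higher (0.61). Between the lines with Scramble 10 of 15 tested were higher and 3 lower in Rh30, with MYCN (90.7 against 2.13 FPKM, 4.87) and GREM1 (4.22) highest and CCND1 (-1.31) and IGF2 (-1.17) lowest. FOXF1, FOXF2 and FOXL1, under 1 FPKM in RD, are 3 of the 10 and could be tested only through Rh30, so nothing is read from that count.

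Some of these genes hold the 7-base word TGAAGCA in the longest annotated 3' UTR (GENCODE 29), a word taken up because earlier results of these data had pointed to it. It occurs once each in GLI3 (3380 bases of 3' UTR), PTCH1 (3500), HHIP (7314) and SUFU (3380). It is absent from GLI1 (201), GLI2 (1978) and SMO (1094), whose 3' UTRs are shorter. Length was not taken into account here or in the shares that follow. Over all tested genes with a 3' UTR, 16.7% hold the word in RD, 22.6% of those lower and 12.2% of those higher with KDM3A-sh2. In Rh30 the shares were 16.9%, 29.3% and 11.1%. Because the word was picked from these same data, the shares describe them and are no test of it. The sequence of KDM3A-sh2 is not given in the sources used here, and the part of the word in the changes of the 7 genes was not tested.

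The genes whose pattern was most like that of each member were found by the correlation of log2(FPKM + 1), centred on the mean of each line, over 12 libraries and 11017 genes that averaged 10 FPKM or more. These correlations are descriptions, since the libraries share their groups. They were NEO1 (r = 0.96) and DPYSL3 (0.91) for GLI1, DLX1 (0.97) and RNASEH2A (0.96) for GLI2, and SASH1 (0.95) and TMTC1 (0.95) for GLI3. They were SOX13 (0.99) and ZNF428 (0.97) for SMO, SNRPN (0.96) and ABHD12 (0.94) for HHIP, and YBX1 (0.95) and PPP1CA (0.94) for SUFU. For PTCH1 they were the processed pseudogenes RP11-110J1.2 and KHSRPP1 (0.95 each), whose reads may be shared with their parent genes.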

How the data were processed

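RNA of RD and Rh30 cells carrying Scramble or KDM3A-sh2 was measured in 12 libraries, and the sample labels gave the line, shRNA and replicate of each. Per the submitters' processing notes, the authors aligned reads to GRCh38 with GSNAP, used SAMtools and Cufflinks, and deposited FPKM per gene without a log. The annotation release and strand setting are not given in the sources used here, and the read length differs between the labels and the methods. The table lists 66095 entries; 120 repeats of an identifier were left out, keeping whichever entry averaged more, and 17 genes with a placeholder of 999999999 in any library, none of them a pathway gene listed here, were not tested. All columns of per-sample values were used.

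The shRNAs were compared within each line, Rh30 with RD for each shRNA, and the interaction over 12 libraries. The tool was limma 3.58.1 (R 4.3.3), with lmFit and a trended eBayes applied to log2(FPKM + 1). Genes that averaged 1 FPKM or more over the fitted libraries were tested, two-sided, with Benjamini-Hochberg adjustment over all of them and a threshold of 0.05. The study used ANOVA on FPKM, which was run as an alternative. The scripts were tested on simulated data. Tables and plots used Python 3.11.15, pandas 2.3.3, NumPy 2.4.6, SciPy 1.17.1 and matplotlib 3.10.9. An exact permutation test of 3 against 3 libraries cannot go below p = 0.1 and was not used. FPKM hold no read counts, so no counting interval is given; Pearson's r between libraries of a group on the log scale ran from 0.9937 to 0.9947, and no 2 libraries were copies of each other. Positions, gene types and 3' UTRs were taken from GENCODE 29, which holds 86.3% of the identifiers, and promoter windows from RefSeq.

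The 7 genes, the gene lists and the 3' UTR word were chosen with earlier results of these data known. Beside the 7 genes, KDM3A, the ligands, CDK4 and DDIT3, genes were named by size among those called: up to 3 per list and line, and up to 2 per list and direction between the lines. From each marker list the highest gene was named, and for each of the 7 genes the nearest pair by correlation. Some genes that the rule or the lists hold are not reported here. AVIL, ARHGAP9, HHIP-AS1, MYF5, PECAM1, IFT172 in RD, FOXF1, FOXF2 and FOXL1 were added after their values were seen. So were the other genes of the plot of chromosome 12. Alternatives were another pseudocount, no filter, TPM and median scaling, ANOVA, a replicate block, a fit over 12 libraries and leaving out each library.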

Additional observations from a re-analysis of the deposited data

Results flagged for a closer look

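The effect of KDM3A knockdown on GLI2 differed between the lines by an interaction test. It was -0.62 in RD and 0.46 in Rh30 on the log2 scale, a difference of 1.08 (SE 0.15, limma, adjusted p = 0.000369), with all 3 knockdown libraries below the controls in RD and all 3 above them in Rh30.

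The effect on SMO also differed between the lines by the same test. It was -0.29 in RD, with all 3 knockdown libraries below the controls, and -0.00 in Rh30, where the libraries overlapped, a difference of 0.29 (SE 0.07, limma, adjusted p = 0.00876).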

How the results depend on the processing

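Over 36 values of single genes and 503 recomputed values, 452 kept direction and side of the threshold, 29 lost the call, 7 gained one and 15 changed sign, none of them called before. GLI2 in both lines, SMO in RD, HHIP in Rh30 and the GLI2 and SMO calls of the interaction were kept under all alternatives. The pathway genes higher in RD numbered 0 without the filter, with ANOVA and with the replicate block, since GLI3 was lost (limma, adjusted p = 0.0977 with the block), and 0 to 1 when libraries were left out. In Rh30 the number higher was 1 without the filter, on the TPM scale and with ANOVA, and 1 to 2 without single libraries. The number lower there was 1 without the filter, with ANOVA, with the replicate block and in the fit over 12 libraries, since GLI1 was lost (limma, adjusted p = 0.0531 without the filter, 0.0607 with the block, 0.147 in the fit over 12 libraries), and 1 to 2 without single libraries. With ANOVA on unlogged FPKM the difference between lines also passed for GLI1 (adjusted p = 0.0242) and HHIP (2.33e-05), whose low RD levels leave little room for an unlogged decrease. By their sign on the log2 scale, higher effects in Rh30 then numbered 3 and lower ones 1, although the unlogged decrease of GLI1 was the larger one in Rh30. All genes called in Rh30 numbered 3214 to 4053 without single libraries, against 5061, and were fewest without Rh30 KDM3A-sh2 1. The cause of these changes was not tested. Differences between lines changed sign for GLI3 on the TPM scale (-0.044) and with median scaling (-0.0044), and for HHIP with a pseudocount of 0.1 (0.24). Without single libraries they ran from -0.074 to 0.099 for GLI3 and from -0.083 to 0.26 for GLI1, and SMO in Rh30 ran from -0.056 to 0.029. The TPM scale moved the median of all genes between the lines from -0.04 to -0.13 with Scramble and from -0.02 to -0.16 with KDM3A-sh2, and SMO with Scramble lost its call there (0.08, limma, adjusted p = 0.271). PTCH1 lost its call in RD with ANOVA (adjusted p = 0.0710) and gained one in Rh30 with median scaling (limma, adjusted p = 0.0492). Replicate numbers did not pair the libraries, since the deviations of same-numbered libraries had correlations from -0.0738 to 0.0663; with the block, calls over all genes numbered 6250 in RD and 3417 in Rh30, against 7389 and 5061. With 3 libraries a group and low FPKM, changes of GLI1 and HHIP in RD are poorly bounded.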

Other observations

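SMO and PTCH1, the pair of proteins at the membrane, stood in a ratio of FPKM of 1.12 to 1.30 in Rh30 Scramble and 1.33 to 1.54 in Rh30 KDM3A-sh2, without overlap. In RD the ratio was 1.14 to 1.50 with Scramble and 1.38 to 1.48 with KDM3A-sh2, with the third Scramble library, in which PTCH1 was lowest, above all others. In RD, 9 of 17 tested genes beside GLI1 on chromosome 12 were higher with KDM3A-sh2 and 2 were lower, with a median log2 fold change of 0.23, beside 21.6% higher, 19.5% lower and a median of 0.01 over all genes tested, while GLI1 itself was not called.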
